A study of Arabidopsis thaliana with 4 samples.

Results

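The nuclear pore complex genes described here are 32 nucleoporin genes of *Arabidopsis thaliana*, taken by gene ID from the 32833 genes of the count table. They comprise AT1G59660 (called NUP98b) with its homologue AT1G10390 (NUP98a), and genes of the outer ring, the inner ring, the pore membrane, the central channel, the nuclear basket and the cytoplasmic side. The nucleoporin genes RAE1 and SAR3 are not among the 32. Of the 79373 introns in the deposited intron table, 223 belong to the 32 genes and were examined as well. RNA came from whole, untreated 7-day-old seedlings on sucrose-containing MS medium. The mutant seedlings, labelled MAC3BQ77A/D81A-GFP, gave 2 polyA-selected libraries (replicates 1 and 3), and wild-type Col-0 seedlings gave 2 libraries (replicates 1 and 2). The mutant carries a GFP-tagged form of MAC3B, a plant homologue of the yeast splicing factor and ubiquitin ligase Prp19, with both substitutions in its name. The labels give neither the promoter of the transgene nor the state of the endogenous MAC3B gene, and no line with unmutated MAC3B-GFP was sequenced alongside, so effects of the substitutions and of the transgene as such cannot be told apart. Both mutant titles carry the same number, whose meaning is not stated, and whether replicates stem from independent plantings is not stated. The p-values therefore measure only the spread between these 4 samples, which may be technical.

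The nuclear pore is a channel through the nuclear envelope, built from nucleoporins that are present in many copies and arranged around a central axis. Stacked outer and inner rings form the scaffold, transmembrane nucleoporins hold it in the membrane, and nucleoporins rich in phenylalanine-glycine repeats fill the channel and bind the carriers of proteins and mRNA. Filaments on the cytoplasmic side help to strip export factors from mRNA, and the basket on the nuclear side receives cargo. In *Arabidopsis*, mutants in several of these genes retain polyA RNA in the nucleus and show altered flowering, auxin response, cold response or immunity.

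MAC3B itself had 1147 and 946.9 CPM (counts scaled for library size with TMM factors) in mutant replicates 1 and 3, against 156 and 161.7 CPM in wild-type replicates 1 and 2. The counts do not separate the transgene from the endogenous gene. Library totals lay between 23436163 and 30105517 counts, so that 3 counts equal 0.0988 to 0.130 CPM, and all 32 nucleoporin genes lay far above that. The mutant libraries differed from each other more than the wild-type libraries did, with a chi-square per gene of 9.79 between the mutant replicates and 4.24 between the wild-type replicates. The summed CPM of 4 shoot markers was 35059 and 39510 in the mutant libraries and 45150 and 44320 in the wild-type libraries, and 2 of the 4 (LHCB1.3 and LHCB1.4) were called lower in the mutant. The summed CPM of 4 root markers was 5703 and 5295 in the mutant and 5322 and 5378 in wild type, with 0 of 4 called (edgeR quasi-likelihood test). Most of each sum was PYK10, at 5635 and 5223 CPM in the mutant and 5257 and 5318 CPM in wild type. CASP1 was higher in both mutant libraries (log2 fold change, mutant over wild type, 0.23, edgeR adjusted p = 0.215). RHS13 was lower in both (-0.55, edgeR adjusted p = 0.26), and the genotypes overlapped for PYK10 and EXPA7. Markers of reproductive organs summed to at most 1.07 CPM and seed storage markers to at most 6.18 CPM in any library. The part of these marker differences in the results below was not tested, and in whole seedlings fewer cells of a type and less RNA per cell cannot be told apart.

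All 32 nucleoporin genes passed the filter on low counts. In the edgeR quasi-likelihood test with Benjamini-Hochberg adjustment over 20483 genes, 2 of the 32 were called higher in the mutant at an adjusted p under 0.05 (6.25%), namely NUP98b and CG1, and 0 were called lower. Over all genes tested, 3.01% were called, 1.68% higher and 1.33% lower. At an unadjusted p under 0.05, 6 members were higher (NUP98b, CG1, NDC1, NUP1, NUP160 and GP210), which is 18.8% against 7.54% of all genes, and 1 (ALADIN) was lower, where 7.17% of all genes were. Both mutant libraries lay above both wild-type libraries for 12 members (37.5%, against 22.3% of all genes) and below them for 4 (12.5%, against 22.4%), and the genotypes overlapped for the other 16. The median log2 fold change, mutant over wild type, was 0.03 over the 32 genes and 0.00 over all genes tested, with 20 of the 32 above 0 (50.1% of all genes were). Without NUP98b, 1 of the other 31 members was called by edgeR (3.23%, near the 3.01% of all genes). At an unadjusted edgeR p under 0.05, 5 of the 31 were higher (16.1%) and 1 was lower. Both mutant libraries lay above both wild-type libraries for 11 of the 31 (35.5%) and below them for 4 (12.9%). The log2 fold changes of these 31 ranged from -0.38 to 0.50, so that no other fitted change exceeded 1.42-fold in size.

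**Figure D1:**
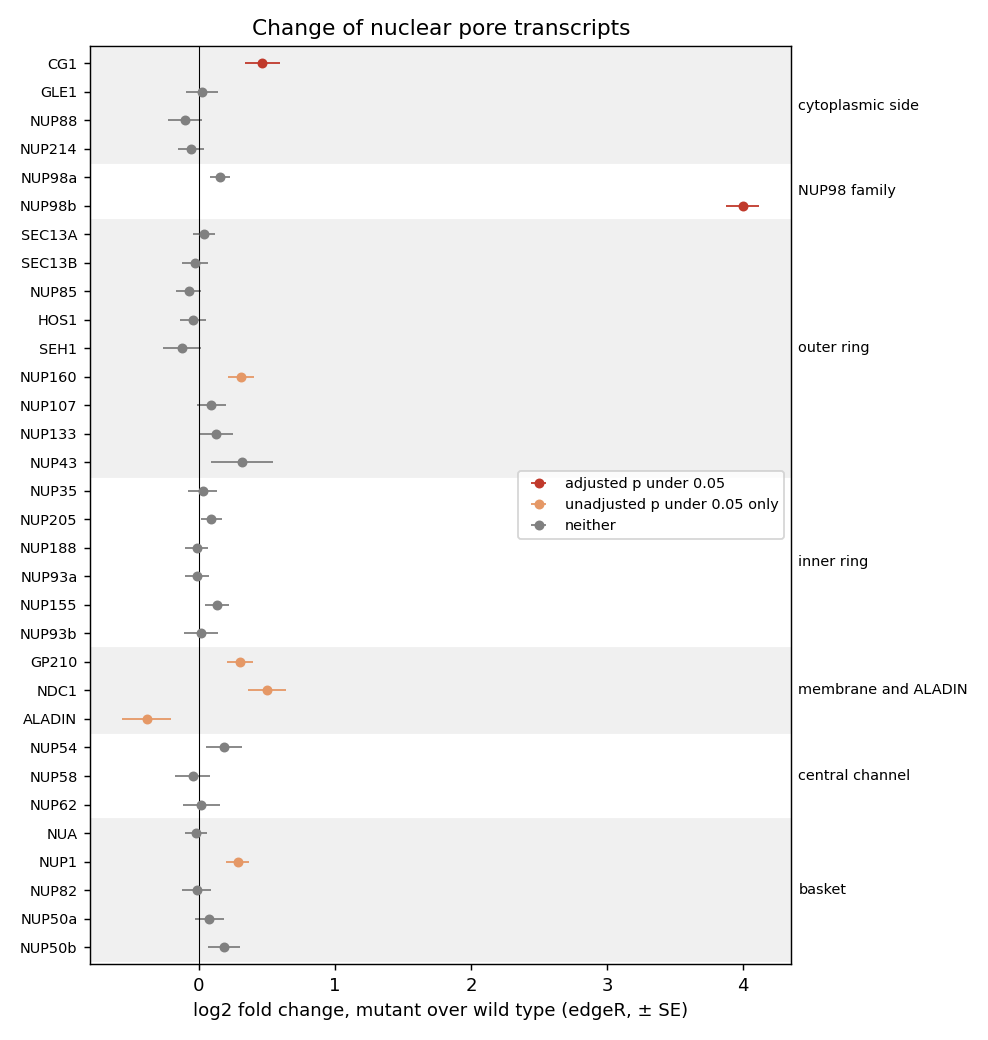
Log2 fold change (mutant over wild type, edgeR, horizontal axis) of each of the 32 nucleoporin genes with its standard error, grouped by place in the pore. NUP98b lies at 3.996, and every other gene lies between -0.38 and 0.50.

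NUP98 is a mobile nucleoporin of the channel that carries phenylalanine-glycine repeats and binds the mRNA export factor RAE1, and *Arabidopsis* has a pair of genes for it. The authors' deposited table names NUP98a DRA2 and NUP98b DRAL, and DRA2 is known from a screen for altered shade responses. NUP98b lies on chromosome 1 from 21923986 to 21929437 on the plus strand (TAIR10) and NUP98a on the same chromosome from 3406956 to 3412874 on the minus strand. Their coding sequences were 76.0% identical over 2883 aligned bases, and the longest run of identical bases was 29. No stretch of NUP98b exon of 75 bases or more had a copy elsewhere in the genome at 95% identity or more, and no other annotated gene shared its exons. The 250 bases before the annotated start of each gene are shown here because the transcripts of this pair differed so much in response. They are read 5′ to 3′ on the strand of the gene from the RefSeq copy of TAIR10, at chr1:21923736-21923985 on the plus strand for NUP98b and chr1:3412875-3413124 on the minus strand for NUP98a, with capitals for the motifs found.
NUP98b: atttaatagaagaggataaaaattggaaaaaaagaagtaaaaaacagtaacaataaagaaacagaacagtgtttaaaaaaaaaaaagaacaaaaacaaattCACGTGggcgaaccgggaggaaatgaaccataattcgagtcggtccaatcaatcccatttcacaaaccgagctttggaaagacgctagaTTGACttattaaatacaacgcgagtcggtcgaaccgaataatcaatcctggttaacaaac
NUP98a: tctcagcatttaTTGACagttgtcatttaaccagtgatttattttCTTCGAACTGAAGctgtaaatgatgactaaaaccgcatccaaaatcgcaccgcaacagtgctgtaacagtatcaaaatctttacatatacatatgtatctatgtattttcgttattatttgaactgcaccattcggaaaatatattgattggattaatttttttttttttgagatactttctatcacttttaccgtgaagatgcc
The NUP98b window held a G-box (CACGTG) 149 bases before the start and a W-box core (TTGAC) 60 bases before it. The NUP98a window held a CTTNNNNNNNAAG motif, known as the site of the plant DNA damage factor SOG1, 205 bases before the start, and TTGAC 238 bases before it. Both strands were searched, and the motifs did not overlap. Of 27443 promoters of the same length, 6.49% held CACGTG (3 of 32 members), 9.71% held CTTNNNNNNNAAG (3 of 32), 44.9% held TTGAC (12 of 32), 47.3% held TATAAA (9 of 32) and 2.36% held AAAATATCT (0 of 32). A match describes letters in the window and not binding.

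NUP98b transcript was 15.96-fold higher in the mutant. Its raw counts were 3158 and 4018 in mutant replicates 1 and 3, against 155 and 232 in wild-type replicates 1 and 2. In CPM these were 129.9 and 132.3 in the mutant, and 6.71 and 9.68 in wild type. The mutant libraries lay close together, and the lower of them was far above the higher wild-type library. The log2 fold change was 3.996 with a standard error of 0.124 (adjusted p = 5.88e-15, edgeR quasi-likelihood test with Benjamini-Hochberg adjustment). It was called in 10 of 10 alternative fits, with log2 fold changes of 3.76 to 4.29.

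NUP98a had 130.5 and 124.9 CPM in the mutant and 113.9 and 115.4 CPM in wild type. Both mutant libraries lay above both wild-type libraries, but the log2 fold change of 0.16 (SE 0.077) was not called (edgeR adjusted p = 0.361). A gene on the other strand shares 6.01% of the NUP98a exon bases. Per kilobase of exon, NUP98b had 35.9 and 36.5 CPM in the mutant against 1.85 and 2.67 CPM in wild type, and NUP98a had 33.7 and 32.2 CPM in the mutant against 29.4 and 29.8 CPM in wild type. NUP98b therefore made up 51.6% and 53.1% of the summed level per kilobase of the pair in the mutant libraries, against 5.93% and 8.24% in the wild-type libraries. The summed level of both genes was 69.5 and 68.8 CPM per kilobase in the mutant and 31.2 and 32.5 CPM per kilobase in wild type, a ratio of 2.17 between the means. By mean level per kilobase NUP98b ranked 3 among the 32 genes in the mutant and 32, the last, in wild type.

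No gene beside NUP98b was called. Of the 5 annotated genes on each side, 6 had 0 counts in all 4 libraries and 4 were tested, with 0 called by edgeR at an adjusted p under 0.05 and 0 at an unadjusted p under 0.05. The nearest gene on the left, AT1G59650, which ends 972 bases before NUP98b, had 598 and 675 counts in the mutant and 570 and 624 in wild type, a log2 fold change of -0.12 (edgeR adjusted p = 0.723). The nearest on the right, AT1G59670, which starts 572 bases after NUP98b, had 0 counts throughout. Why the 6 genes had no counts was not tested, so their 0 counts are not read as absence of the transcript. The other tested neighbours had log2 fold changes of 0.35 (AT1G59620), 0.33 (AT1G59640) and 0.17 (AT1G59700), with edgeR adjusted p-values of 0.468, 0.833 and 0.657.

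**Figure D2:**
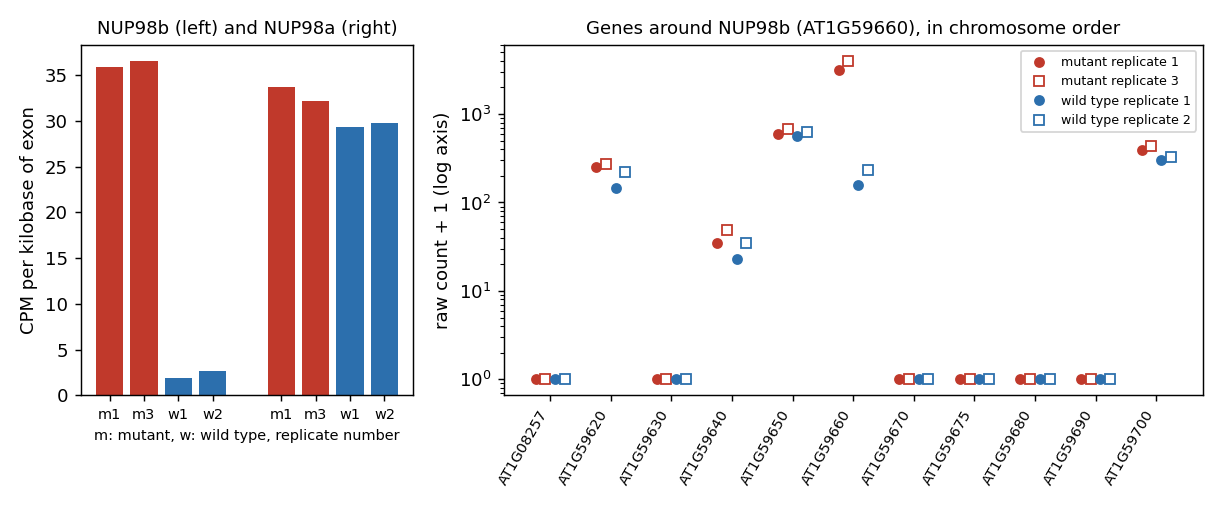
Left, level in CPM per kilobase of exon of NUP98b and NUP98a in each library (m1 and m3, mutant; w1 and w2, wild type). Right, raw count plus 1 on a log axis of NUP98b and of the 5 annotated genes on each side of it. Among the genes with counts, NUP98b alone shows the mutant libraries far above the wild-type libraries.

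On the cytoplasmic side, 1 of 4 genes was called by edgeR, where 3.01% of all genes were. At an unadjusted edgeR p under 0.05, 7.54% of all genes were higher and 7.17% lower. The same shares apply to each part of the pore below, where the counts of genes are small. CG1 (AT1G75340, chromosome 1, 28268968 to 28272081, minus strand) encodes a zinc finger nucleoporin whose vertebrate homologue works with GLE1. It had 26.9 and 25.3 CPM in the mutant and 20.2 and 17.5 CPM in wild type. The mutant libraries lay above the wild-type libraries by a log2 fold change of 0.47 ± 0.126 (SE; edgeR adjusted p = 0.047). That call sat at the threshold: it was kept in 6 of 10 alternative fits. It was lost with DESeq2 (adjusted p = 0.0827), and in edgeR without mutant replicate 1 (adjusted p = 0.0689), wild-type replicate 1 (adjusted p = 0.147) or wild-type replicate 2 (adjusted p = 0.475). A gene on the other strand, AT1G75335, shares 2.61% of the CG1 exon bases, and the counting used no strand option.

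GLE1, which activates the RNA helicase LOS4 at the pore, had 25.1 and 27.0 CPM in the mutant and 24.3 and 27.1 CPM in wild type, so the genotypes overlapped. NUP214 (LNO1), the docking site of that helicase in animals and yeast, likewise overlapped at 44.5 and 40.3 CPM in the mutant and 44.4 and 43.9 CPM in wild type. NUP88 (MOS7), which is needed for nuclear retention of immune regulators, had 22.3 and 21.0 CPM in the mutant and 23.97 and 22.5 CPM in wild type. For NUP88 both mutant libraries were the lower ones, with a log2 fold change of -0.10 ± 0.122 (SE; edgeR adjusted p = 0.770).

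The outer ring, or Y complex, is the part of the scaffold most often linked to mRNA export in plants. Of its 9 genes in this set 0 was called by edgeR, with 1 at an unadjusted p under 0.05. That one was NUP160 (SAR1), a long scaffold subunit whose mutants retain polyA RNA in the nucleus. NUP160 had 75.5 and 65.3 CPM in the mutant and 58.55 and 55.01 CPM in wild type. The genotypes did not overlap, with a log2 fold change of 0.31 ± 0.0932 (SE; edgeR adjusted p = 0.0790). It passed the threshold in 3 of the 10 alternative fits. NUP133, a stalk subunit, had 22.8 and 21.6 CPM in the mutant and 21.2 and 19.6 CPM in wild type, also without overlap (log2 fold change 0.12, edgeR adjusted p = 0.723). NUP85 and SEH1, neighbours in one arm of the Y complex, were lower in both mutant libraries than in both wild-type libraries, by log2 fold changes of -0.08 and -0.12 (edgeR adjusted p = 0.779 and 0.757).

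The WD40 subunit NUP43 had the least precise value of the ring, with 8.68 and 7.67 CPM in the mutant and 8.05 and 5.05 CPM in wild type. Its log2 fold change was 0.32 with a standard error of 0.228, and the genotypes overlapped. NUP107 (log2 fold change 0.09), SEC13A (0.04), SEC13B (-0.03) and HOS1 (-0.04), a ubiquitin ligase of the cold response bound to the ring, overlapped as well. SEC13 proteins also serve in the coat of vesicles leaving the endoplasmic reticulum, and their genes had the highest levels of the set: SEC13A had 56.3 and 56.0 CPM per kilobase in the mutant and 56.0 and 53.3 CPM per kilobase in wild type, and SEC13B had 37.3 and 35.6 CPM per kilobase in the mutant and 35.5 and 38.7 CPM per kilobase in wild type.

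The inner ring, which lines the channel and joins the outer rings to the membrane, had 0 of 6 genes called by edgeR and 0 at an unadjusted p under 0.05. Its log2 fold changes ran only from -0.02 (NUP188) to 0.13 (NUP155). NUP155 had 74.5 and 65.7 CPM in the mutant and 63.7 and 64.2 CPM in wild type, and the large subunit NUP205 had 154.7 and 149.4 CPM in the mutant and 136.0 and 149.3 CPM in wild type. In both genes the mutant libraries were the higher ones, though mutant replicate 3 and wild-type replicate 2 were nearly level for NUP205. NUP35, NUP188 and both NUP93 genes, which bridge the rings and the channel, overlapped between genotypes. A gene on the other strand shares 18.8% of the NUP93a exon bases.

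Of the 3 genes grouped as pore membrane and ALADIN, 0 was called by edgeR. At an unadjusted edgeR p under 0.05, 2 were higher and 1 was lower, where 7.54% and 7.17% of all genes were. NDC1, a transmembrane nucleoporin that anchors the ring, had 20.9 and 19.3 CPM in the mutant and 13.5 and 14.8 CPM in wild type. With a log2 fold change of 0.50 ± 0.139 (SE) it had the largest increase after NUP98b. NDC1 just missed the threshold (edgeR adjusted p = 0.0533), which it met in 4 of 10 alternative fits. GP210, the other transmembrane nucleoporin, had 69.9 and 59.5 CPM in the mutant and 53.3 and 51.7 CPM in wild type. Both mutant libraries were the higher ones (log2 fold change 0.30, SE 0.0952, edgeR adjusted p = 0.1). With a library left out, the log2 fold change of GP210 ran from 0.181 to 0.41.

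ALADIN, a WD40 protein that NDC1 holds at the pore in animals, went the other way. It had 7.53 and 8.66 CPM in the mutant and 10.6 and 10.5 CPM in wild type, so both mutant libraries were the lower ones. The log2 fold change of -0.38 ± 0.181 (SE) was the lowest of the set and was not called (edgeR adjusted p = 0.330, and 0 of 10 alternative fits called it). A gene on the other strand shares 4.31% of the ALADIN exon bases.

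The central channel trimer of NUP62, NUP54 and NUP58, whose repeats form the permeability barrier, had 0 of 3 genes called by edgeR and 0 at an unadjusted p under 0.05. NUP54 had 21.93 and 19 CPM in the mutant and 16.96 and 18.99 CPM in wild type, so that mutant replicate 3 and wild-type replicate 2 were nearly level. Of the NUP54 exon bases 5.92% are shared with a gene on the other strand. NUP62 and NUP58 overlapped between genotypes (log2 fold changes 0.02 and -0.05). A gene on the other strand shares 43.57% of the NUP62 exon bases, so its counts are uncertain.

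In the basket, 0 of 5 genes was called by edgeR and 1 had an unadjusted p under 0.05. NUP1 (also called NUP136), a plant nucleoporin that shapes the nucleus, had 97.2 and 87.8 CPM in the mutant and 75.03 and 76.47 CPM in wild type. Here too the mutant libraries were both higher, by a log2 fold change of 0.29 ± 0.0844 (SE, edgeR adjusted p = 0.0704, with 3 of 10 alternative fits calling it). A gene on the same strand, AT3G10660, shares 4.78% of the NUP1 exon bases. NUP82, the partial homologue of NUP1, had 39.8 and 36.3 CPM in the mutant and 41.0 and 35.9 CPM in wild type, where the genotypes overlapped. NUA, the coiled-coil basket protein that anchors the SUMO protease ESD4, had 110.4 and 101.7 CPM in the mutant and 106.3 and 108.7 CPM in wild type, also overlapping, and a gene on the other strand shares 10.45% of its exon bases. NUP50a and NUP50b, whose vertebrate homologue binds importin alpha, had log2 fold changes of 0.08 and 0.18.

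**Figure D3:**
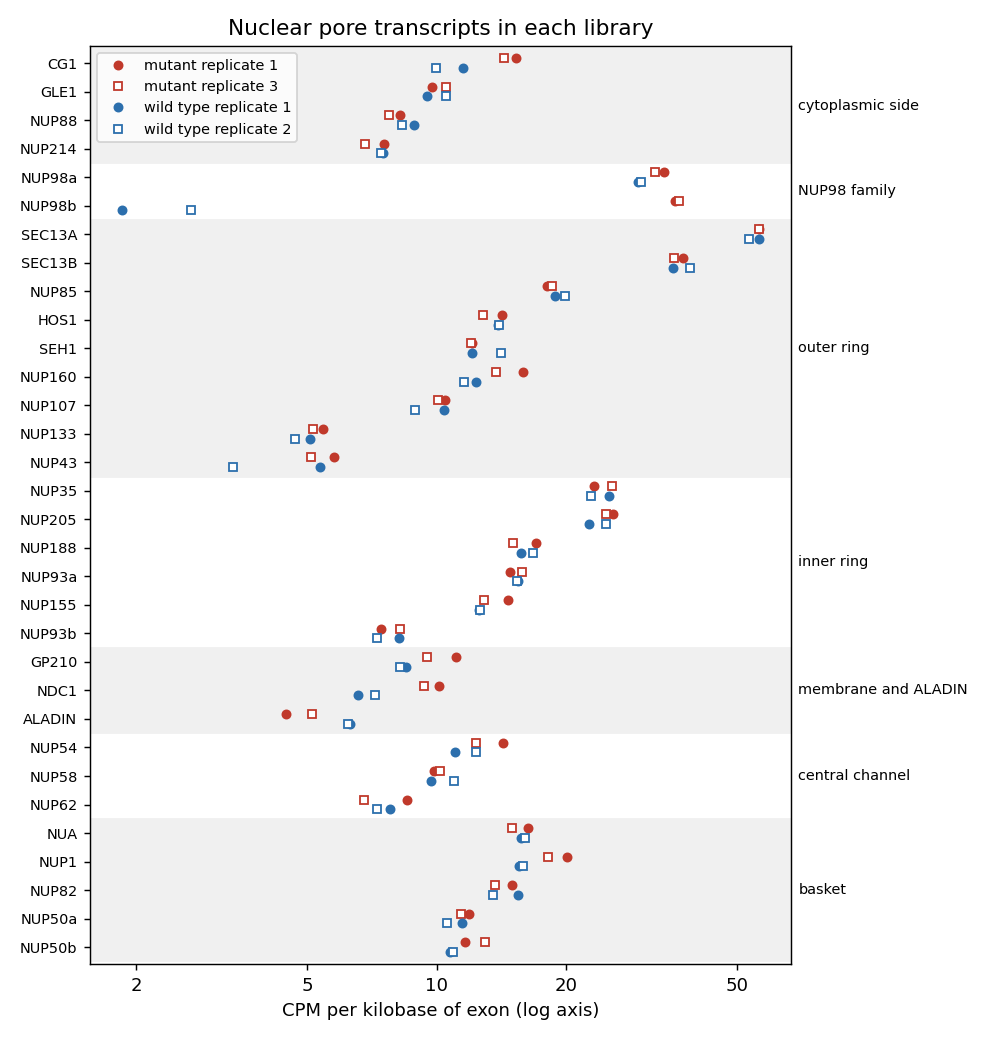
Level of each nucleoporin gene in CPM per kilobase of exon (log axis) in the 2 mutant and 2 wild-type libraries, grouped by place in the pore. NUP98b is at 35.9 and 36.5 in the mutant and 1.85 and 2.67 in wild type, while in the other 31 genes the 4 libraries lie near each other.

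The balance of the other homologue pairs moved far less. NUP50a made up 50.6% and 46.8% of the summed level per kilobase of NUP50a and NUP50b in the mutant, against 51.7% and 49.2% in wild type. NUP93a made up 66.6% and 65.7% of its pair in the mutant, against 65.3% and 67.9% in wild type, and SEC13A made up 60.1% and 61.1% of its pair in the mutant, against 61.2% and 57.9% in wild type. In each of these pairs the genotypes overlapped. NUP1 made up 57.3% and 57.1% of the sum of NUP1 and NUP82 in the mutant, against 50.2% and 54.0% in wild type, so that both mutant libraries were slightly higher. The coding sequences of these pairs were 71.6% (NUP50), 84.5% (NUP93), 84.0% (SEC13) and 45.7% (NUP1 and NUP82) identical. Exon bases with a copy of at least 75 bases at 95% identity elsewhere made up 2.63% of NUP93a and 3.49% of NUP93b and none of the other members.

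Levels of the set spanned a wide range that was much the same in both genotypes apart from NUP98b. In the mutant the mean level per kilobase ran from 4.78 CPM for ALADIN, 5.30 for NUP133 and 5.43 for NUP43 up to 56.1 for SEC13A. In wild type it ran from 2.26 CPM per kilobase for NUP98b and 4.35 for NUP43 up to 54.7 for SEC13A. At the lower end in the mutant, ALADIN had 4.45 and 5.12 CPM per kilobase, NUP133 had 5.43 and 5.16, and NUP43 had 5.76 and 5.09. NUP43 overlapped both of the others, and the higher ALADIN library lay just under the lower NUP133 library. At the upper end in the mutant, both NUP98b libraries lay between the SEC13B libraries.

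Genes that act with the pore in mRNA export, the THO, ALY, UAP56 and TREX-2 genes with LOS4, were all tested (22 of 22). Of these, 1 was called higher by edgeR (4.55%, against 1.68% of all genes) and 0 lower, and the median log2 fold change was -0.01. At an unadjusted edgeR p under 0.05, 2 were higher (9.09%, against 7.54% of all genes) and 1 was lower, where 7.17% of all genes were. The lower one, DSS1V, had the largest change of the list, a log2 fold change of -0.78 (edgeR adjusted p = 0.243). The called gene was LOS4, the DEAD-box helicase that GLE1 activates. LOS4 had 124.2 and 115.5 CPM in the mutant and 93.4 and 89.8 CPM in wild type, a log2 fold change of 0.39 ± 0.0803 (SE; edgeR adjusted p = 0.00947).

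The authors' deposited table of a DESeq2 fit held all 32 genes, with the same sign as in the edgeR fit for 32 of 32 and a difference of at most 0.0015 on the log2 scale. There 1 member, NUP98b, had an adjusted p under 0.05 (3.86% of the genes with an adjusted p in it did), CG1 had 0.0828, NDC1 had 0.0937, and NUP43 had none. The authors' deposited table does not state the direction of its fold changes, which was read here from the signs of the counts.

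Introns of nucleoporin genes were examined in the authors' deposited intron score table. It has 2 columns for the mutant and 2 for wild type, whose names match no single library. The score is a coverage signal per intron base: multiplied by the intron length it was a whole multiple of a fixed factor in each column, and these multiples are called coverage units here. The factor was 12.66 and 10.11 in mutant columns 1 and 2, and 12.91 and 12.5 in wild-type columns 1 and 2. In each genotype column 1 had the larger factor and replicate 1 the smaller library total. This order would pair column 1 with replicate 1, but the pairing was not used in the fits. The table lists introns of 19 of the 32 genes, and 13 genes, NUP98a and CG1 among them, have none. Of the 223 listed introns 99 (44.4%) were above 0 in at least 1 column, against 52.1% of the table. Most members rested on little coverage, with a median of 300 coverage units per intron and column above 0.

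By limma on log2(score + 1), 0 of the 99 introns was called at an adjusted p under 0.05, as was 0 of the 41390 introns tested in all, and the smallest adjusted p among members was 0.625. At an unadjusted p under 0.05, 3 member introns were higher in the mutant, where 1.10% of all introns were, and 0 were lower, where 0.686% were. All 3 belonged to NUP98b. Both mutant columns lay above both wild-type columns for 13 member introns, 7 of them in NUP98b, and below for 8, where 12.2% and 9.69% of all introns above 0 did so. The authors' difference, mutant minus wild type of the mean log2(score + 1), reached at least 4 in size for 9 member introns, where 2.94% of the table did. It was higher in the mutant for 7 of them and lower for 2, against 1.79% and 1.16% of the table. Of the 7 higher introns 5 were in NUP98b, and the 210 introns of the other genes held 2 higher and 2 lower.

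In NUP98b, 9 and 10 of the 13 listed introns were above 0 in the mutant columns, against 1 and 1 in the wild-type columns. Summed over its introns there were 4409 and 9734 coverage units in the mutant, against 444 and 564 in wild type. All of the wild-type units came from 1 intron, of 165 bases, and the other introns were at 0 in both wild-type columns. The gene's exon counts were higher in the mutant as well, so the intron coverage was set against them. NUP98b had 1.97 coverage units per exon count in the mutant and 2.60 in wild type. The wild-type value rested on that 1 intron and on 387 exon counts. The ratio of 0.757 lies between the quartiles of 0.687 and 1.64 over 9787 genes, whose median was 1.05. Among the 18 members with a finite ratio it ran from 0.265 to 20.4, with a median of 0.614.

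The introns with the largest score differences are shown here with their scores, 5′ to 3′ on the strand of the gene (TAIR10, from the RefSeq copy), with the splice site bases at each end in capitals. All lie within the coding span. The NUP98b introns are at chr1:21928527-21928619, chr1:21927497-21927622 and chr1:21928308-21928484 on the plus strand, the NUP155 intron is at chr1:5120031-5120114 on the minus strand, and the NUP205 intron is at chr5:20809460-20809649 on the plus strand.
NUP98b, 93 bases: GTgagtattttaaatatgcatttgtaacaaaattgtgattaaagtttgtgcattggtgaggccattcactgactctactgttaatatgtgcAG
NUP98b, 126 bases: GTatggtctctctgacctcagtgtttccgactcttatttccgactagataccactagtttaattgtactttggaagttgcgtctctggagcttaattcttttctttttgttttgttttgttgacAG
NUP98b, 177 bases: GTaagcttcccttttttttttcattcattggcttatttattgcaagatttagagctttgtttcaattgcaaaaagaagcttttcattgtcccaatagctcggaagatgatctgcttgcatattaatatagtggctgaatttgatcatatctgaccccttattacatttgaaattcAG
NUP155, 84 bases: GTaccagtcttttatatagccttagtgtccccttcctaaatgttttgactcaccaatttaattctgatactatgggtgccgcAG
NUP205, 190 bases: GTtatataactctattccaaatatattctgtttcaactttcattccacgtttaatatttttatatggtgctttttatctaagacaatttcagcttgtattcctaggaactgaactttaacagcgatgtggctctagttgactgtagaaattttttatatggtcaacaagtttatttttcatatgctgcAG
All 5 carry GT at the start and AG at the end. The NUP98b intron of 93 bases had scores of 118.1 and 104.7 in the mutant columns and 0 in both wild-type columns. The intron of 126 bases had scores of 105.8 and 98.5 in the mutant and 0 in both wild-type columns, and the intron of 177 bases had 35.3 and 77.7 in the mutant and again 0 in wild type. Unadjusted limma p-values were 0.0104, 0.0126 and 0.0477, and each adjusted p was 0.625. One NUP98b intron, of 165 bases, was above 0 in all columns, at 33.5 and 197.4 in the mutant and 34.7 and 42.7 in wild type, and there the genotypes overlapped.

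The lowest differences were in other genes. The NUP155 intron had a score of 0 in both mutant columns and 60.4 and 38.8 in the wild-type columns, and the NUP205 intron had 0 in both mutant columns and 15.4 and 55.05 in wild type (limma adjusted p = 0.625 for each). The third lowest was in NUP50b, with 0 and 60.7 in the mutant and 56.8 and 158.8 in wild type, where the genotypes overlapped. Other introns of both genes went the other way. A NUP155 intron of 122 bases had 12.9 and 5.39 in the mutant and 0 in wild type. In NUP205, 3 introns were higher in both mutant columns, the largest difference being in one of 104 bases with 137.4 and 28.4 in the mutant and 0 and 8.77 in wild type. When the score was taken relative to the mean exon level of the gene in its genotype, 0 of 40545 introns was called by limma at an adjusted p under 0.05. An unadjusted p under 0.05 was reached by 3 member introns. The NUP98b intron of 93 bases was the one higher in the mutant, where 3.51% of all introns were. The NUP155 and NUP205 introns shown above were lower in the mutant, where 2.44% of all introns were. The smallest limma adjusted p among member introns was 0.744.

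**Figure D4:**
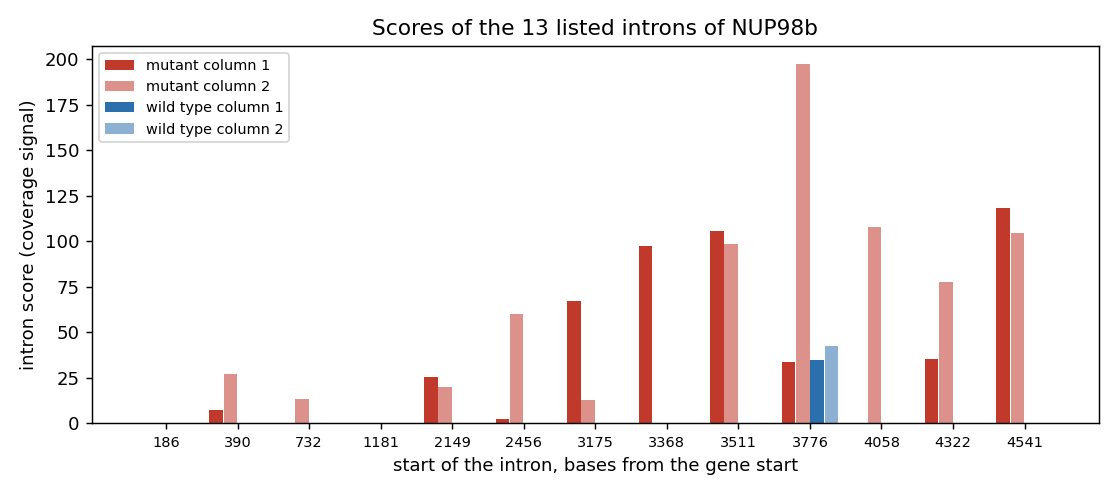
Score (coverage signal, vertical axis) of the 13 listed introns of NUP98b in the 2 mutant and 2 wild-type columns, by the distance in bases from the gene start to the intron start. The mutant columns are above 0 in 9 and 10 introns and both wild-type columns in the same 1.

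The authors' deposited rMATS table of retained introns held 1 event in a nucleoporin gene among 4690, an intron of 99 bases of NUP98a (chromosome 1, 3412609 to 3412707) that lies outside the coding span. In the authors' deposited table it had 39 and 33 inclusion reads and 114 and 128 skipping reads in the libraries of group 1, against 21 and 13 inclusion reads and 73 and 69 skipping reads in group 2. The inclusion levels were 0.170 and 0.134 in group 1 and 0.147 and 0.102 in group 2, so the groups overlapped, and the authors' deposited p-value was 0.331 with a false discovery rate of 0.613. The table names the genotype of neither group, so no direction by genotype is given. Of all events in the authors' deposited table, 16.5% had a false discovery rate under 0.05, and 0 member events did.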

How the data were processed

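PolyA-selected mRNA of 4 seedling libraries was measured. The authors deposited raw counts per gene, which per the file headers came from featureCounts 2.0.1 over TAIR10 exons with no strand option, together with exon lengths. Replicates are numbered by sample title; the count columns number the wild-type libraries 2 and 3, and the sample descriptions tie them to titles. Per the submitters' processing notes HISAT2 2.2.0, STAR 2.7.9a and DESeq2 1.30.1 were used as well; which aligner made which file is not given in the sources used here. The authors' deposited DESeq2 table holds mean scaled counts (a signal), log2 fold changes with errors, a Wald score and p-values. The authors' deposited rMATS table holds p-values and an inclusion difference, a score from -1 to 1. The deposited intron score is a coverage signal; its making is not stated, and score times length was a whole multiple of 1 factor per column within 0.02 for at least 99.9858% of introns above 0. Another 4 columns of single log2 values were not used.

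Counts were tested with edgeR 4.0.16 (R 4.3.3; filterByExpr, TMM, glmQLFit, glmQLFTest) over all 20483 genes kept, with genotype as the only term. Levels per kilobase are CPM divided by exon length. Intron scores were tested with limma 3.58.1 (trended eBayes) after taking log2(score + 1), keeping introns above 0 in at least 1 column. The design had assumed a gene level per library for the relative score. Because the names of the score columns match no single library, the mean level of the genotype was used. The spread of the gene level therefore does not enter that fit. With 2 samples against 2, an exact permutation test cannot go below p = 0.333, so none was used. Both fits were tested on simulated data. Coordinates are TAIR10; in the RefSeq copy used for sequences, 97.4% of 79335 introns of the table had the splice site bases GT or GC and AG. Copies were searched with BLAST+ 2.17.0, and pairs were aligned with MAFFT 7.526.

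The 32 members and the other gene lists were chosen with earlier results of these data known. Values per library were planned for members past the threshold in any fit, their homologues, and those nearest the threshold, with the rest by range and counts. Beyond that plan they are also given for other members, such as GLE1, NUP214 and ALADIN. Introns are those with the 3 highest and lowest differences at a mean score of at least 0.5. The NUP50b intron lies outside the coding span and is given by value only. Alternatives were other scalings, DESeq2 1.42.0, other filters and pseudocounts, and each library or column left out.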

Additional observations from a re-analysis of the deposited data

How the results depend on the processing

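NUP98b kept its call and direction in all 10 alternatives. The count of nucleoporin genes called, 2 in the fit reported, was 5 with library totals only (CG1, NUP98b, NUP160, NDC1 and NUP1), 1 with DESeq2 (NUP98b), 3 at a mean of at least 1 CPM (CG1, NUP98b and NDC1) and 6 with no filter on low counts (GP210 added to the 5), and 1 to 6 with a library left out. It was 6 without mutant replicate 3 and 1, NUP98b alone, without any one of the other libraries, where the lone sample is assumed to vary like the other genotype. Over all genes tested the count, 617 in the fit reported (345 higher), was 701 with library totals only (507 higher), 510 with DESeq2, 644 at a mean of at least 1 CPM, 1848 without mutant replicate 3 and 1006 without mutant replicate 1, 135 and 220 when wild-type replicate 1 or 2 was left out, and 1090 with no filter. The cause of these shifts was not tested. Library totals moved the median of all genes by 0.037 on the log2 scale.

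Directions were kept in all 10 alternatives by 19 of 32 genes, and the other 13, all within 0.091 of 0, changed sign in some. With library totals only, the log2 fold changes were 0.00897 for SEC13B, 0.024 for NUP93a, 0.021 for NUP188, 0.021 for NUP82 and 0.016 for NUA. With a library left out they ran from -0.055 to 0.098 for GLE1, -0.131 to 0.010 for NUP214, -0.018 to 0.207 for NUP107, -0.089 to 0.036 for SEC13B, -0.119 to 0.029 for HOS1, -0.046 to 0.098 for NUP35, -0.062 to 0.034 for NUP93a, -0.065 to 0.104 for NUP93b, -0.108 to 0.072 for NUP188, -0.154 to 0.177 for NUP62, -0.133 to 0.045 for NUP58, -0.110 to 0.084 for NUP82 and -0.081 to 0.037 for NUA.

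For the intron score, 0 member introns were called under any pseudocount or filter tried, and 0 to 31 with a column left out, the 31 without mutant column 1, where 7356 of 38489 introns were called. For the score relative to the gene, the counts were 0 to 18 with a column left out, the 18 again without mutant column 1, where 6171 of 37757 introns were called. With no filter on low values the count was 131, against 24630 of 66922 introns in all; there, introns at 0 in every column carry only the difference of the gene. The retained-intron event stayed uncalled under both stricter thresholds. No paired analysis was possible because the genotypes share only 1 replicate number, which is 1 by the sample titles and 3 by the column names of the count table. Each genotype has 2 libraries.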

Other observations

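Genes of the nuclear envelope that surround the pore, the SUN proteins, their WIP and WIT partners, the CRWN and KAKU4 lamina-like proteins, the NEAP proteins and the SUMO protease ESD4, were read by counts. Of 16 such genes 15 were tested, and CRWN4 had 0 counts in all libraries. Why CRWN4 had no counts was not tested, and exon overlap with other genes was examined only for the 32 nucleoporin genes. Its 0 counts are therefore not read as absence of the transcript. By edgeR 0 of the 15 were called, where 3.01% of all genes were, and the median log2 fold change was -0.07. At an unadjusted edgeR p under 0.05 there were 0, where 7.54% of all genes were higher and 7.17% lower. Both mutant libraries lay above both wild-type libraries for 4 of the 15 (26.7%, against 22.3% of all genes). They lay below for 4 (26.7%, against 22.4%), and the genotypes overlapped for 7. ESD4, which NUA anchors at the basket, had 32.3 and 33.0 CPM in the mutant and 28.2 and 29.8 CPM in wild type, so both mutant libraries were the higher ones (log2 fold change 0.17, edgeR adjusted p = 0.488). CRWN2 and CRWN3, coiled-coil proteins of the plant lamina, had log2 fold changes of -0.23 and -0.18 with both mutant libraries below both wild-type libraries (edgeR adjusted p = 0.345 and 0.364). For CRWN1 the genotypes overlapped (-0.08). The largest change of the list was that of NEAP3, at 0.41 with both mutant libraries the higher ones (edgeR adjusted p = 0.472). The genes named here with their values were chosen for naming after those values were seen.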
